A study of Sus scrofa with 6 samples.

Results

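Cadherins and protocadherins were examined in whole pig embryos of both VRTN genotypes. The members are the transcript rows whose deposited protein description contains the word cadherin, in any case of letters, so protocadherins count. There are 84 such rows among 20523, and they carry 69 gene names. For 11 of these genes the table holds several rows, up to 5 for CDH11, and 14 rows are fragments shorter than 1000 bases. The rows were sorted by their descriptions into 8 families. They are 10 classical type I rows, 19 classical type II rows, 5 rows of other small cadherins, 6 of FAT and Dachsous, 2 of CELSR, 9 of non-clustered protocadherins, 25 of clustered protocadherins and 8 of cadherin-related genes. FAT1 is described in the table as a tumor suppressor homolog, without the word cadherin, so its row lies outside the rule and is given for comparison only. The desmosomal cadherins with a row, DSC1, DSC2, DSC3, DSG1, DSG2 and DSG4, also lie outside it and were kept in the list of partner genes. Other rows whose KEGG annotation names a cadherin are left out too, such as those described as Cdh7 protein and KIAA1400 protein. The members are therefore not all cadherins of the table. CDH5, PCDH19, PCDH18 and CELSR2 were not analysed here.

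Cadherins are calcium-dependent adhesion proteins of the cell surface. Classical cadherins of neighbouring cells bind each other through their outer domains, while their tails hold p120-catenin and beta-catenin, and alpha-catenin links the complex to actin. In the early embryo a change from E-cadherin to N-cadherin accompanies the formation of mesoderm and of the neural tube, and somites become epithelial balls held together by such junctions. Protocadherins lack the classical catenin-binding tail. The FAT and Dachsous proteins form a receptor and ligand pair that orients cells within a tissue, and the CELSR proteins, also called Flamingo, serve the core planar polarity pathway with Frizzled, Vangl, Prickle and Dishevelled.

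The series compared 3 wild-type embryos (WT, the qq genotype) with 3 embryos homozygous for the mutant allele at 2 quantitative trait nucleotides of VRTN (QQ). VRTN encodes vertnin and is tied to the number of thoracic vertebrae. All 6 were Large White embryos taken at 17.5 to 18.0 days post coitum, and RNA of each whole embryo made 1 library. The genotypes were read from extra-embryonic tissue. The labels give no litter, dam or sex, so a p-value here speaks only of variation among these 6 animals. Alleles other than those of VRTN that may differ between the embryos are not described.

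Libraries held 12.2 to 13.5 uniquely mapped reads in units of 1000000, and 0.0802% to 0.118% of these fell on the member rows. VRTN itself had 0 reads in each WT library and 2, 0 and 1 reads in QQ replicates 1 to 3, so it could not check the labels. WT replicate 3 stood apart: its score on the leading principal component (57.7% of the variance) was -61.7, those of the other WT libraries were -9.13 and 1.00, and those of the QQ libraries lay between 10.95 and 29.99. The main results are therefore given with and without it. In whole embryos, fewer cells of a type and less RNA per cell cannot be told apart.

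No cadherin or protocadherin row passed the test between genotypes. The test was edgeR's quasi-likelihood test on read counts, adjusted by Benjamini-Hochberg over all 13957 rows with enough reads, with an adjusted p under 0.05 as the threshold. It called 0% of all tested rows. Of the 84 members 54 had enough reads for the test, and the smallest edgeR adjusted p among them was 0.233, which was also the smallest in the whole table. At an unadjusted edgeR p under 0.05, 13 members had higher values in QQ embryos (24.1% of the 54, where 11% of all tested rows did) and 0 had lower values (9.29% of all tested rows did). DESeq2 called 1 member higher, FAT3, where it called 0.795% of all tested rows in either direction. Limma with array weights, which gives outlying libraries less weight, called 5 of the 54 members, each higher. It called a like share of all tested rows, 9.47% in either direction. The 5 members were FAT3, PCDH10, PCDH11X, PCDH8 and a short CDH2 row.

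The values of the tested members leaned towards QQ. Fold changes are given as log2 of QQ over WT, after scaling by edgeR's TMM factors, so a positive value means a higher level in QQ embryos. Of the 54 tested members 38 had a positive and 16 a negative log2 fold change, with a median of 0.26. Over all tested rows 49.7% were positive and 50.3% negative, and the median was -0.00. With limma on RPKM without TMM factors, 60.5% of all tested rows and 40 of the 54 members were positive. The groups did not overlap in 17 members, each with QQ above WT, and 18.8% of all tested rows were of this kind. In 0 members did every QQ library lie below every WT library, against 9.07% of all tested rows. Without WT replicate 3, 18 members lay wholly above (21.2% of all tested rows did) and 2 wholly below (10.8%).

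WT replicate 3 moved with this lean. It was the lowest of the 6 libraries in 31 of the 54 tested members, against 41.4% of all tested rows, and the highest in 6, against 25.3%. Among the 13 members at an unadjusted edgeR p under 0.05 it was the lowest in 10. These 13 were picked for higher QQ values, which favours a WT library as the lowest. The share over all rows picked in that way was not counted, so the 10 cannot be read as a trait of the members. Without WT replicate 3, 35 members were positive and 19 negative, and their median was 0.16, where 49.6% of all tested rows were positive. At an unadjusted edgeR p under 0.05 there were then 6 members higher, where 8.55% of all tested rows were, and 0 lower, where 5.15% were. The count of 13 was smaller with each other library left out too. It was 8 without WT replicate 1 (9.89% of all tested rows), 8 without WT replicate 2 (14.6%), 8 without QQ replicate 1 (10.3%) and 8 without QQ replicate 2 (5.56%). Leaving out QQ replicate 3 gave 5 (5.02%) and a median of 0.11. Each of the 13 kept a positive value whichever library was left out. Members at an unadjusted edgeR p under 0.05 with lower values, 0 with all libraries, numbered 3 without WT replicate 2 (11% of all tested rows) and 1 without QQ replicate 1 (10.4%). The 3 were the short CDH3 row, CDHR4 and a second row of CDH15, and the 1 was CDH15.

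**Figure D1:**
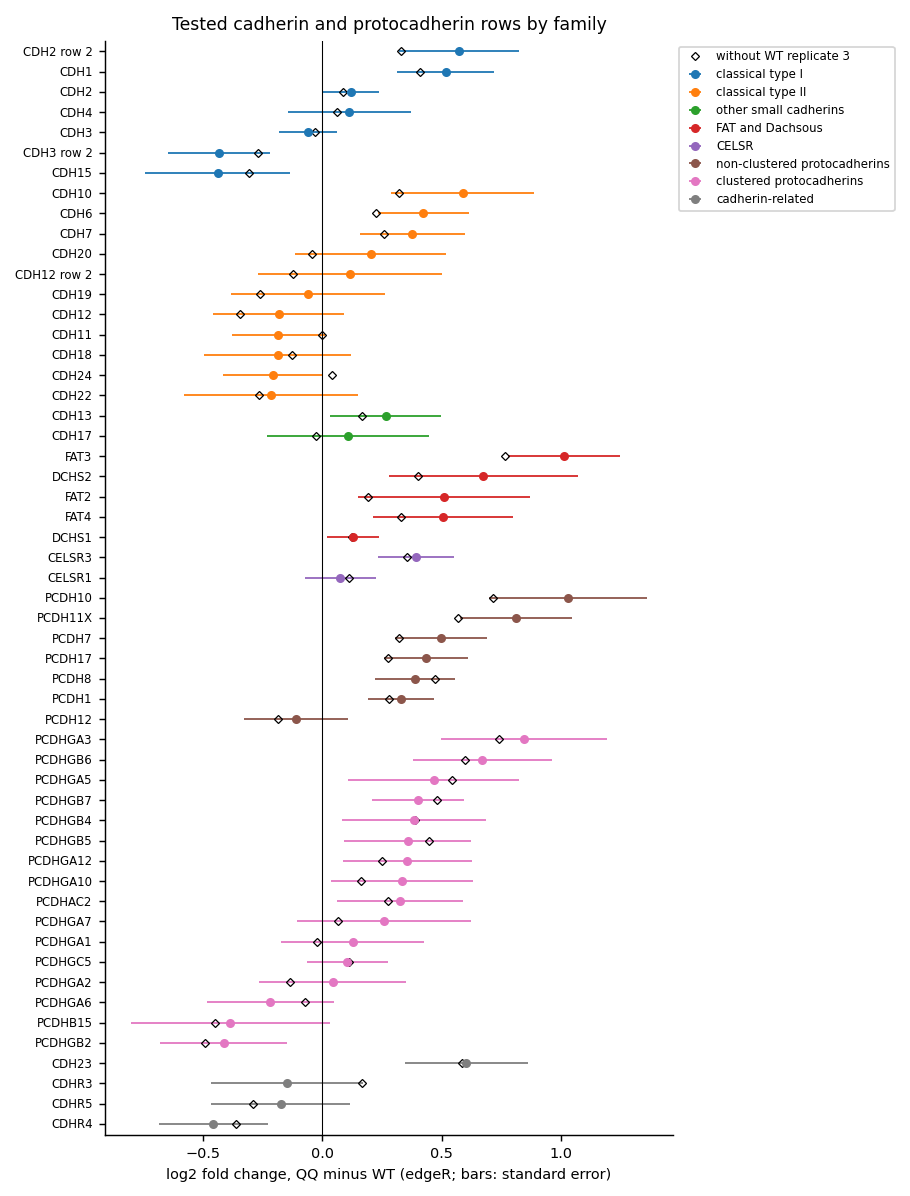
Each filled point is the edgeR log2 fold change (QQ minus WT) of 1 tested member row, coloured by family, with its standard error as a bar, and the open diamond is the value without WT replicate 3 (row 2 marks a second row of a gene). Of the 54 points 38 lie above 0, and the diamonds of FAT3, PCDH10, PCDH11X and PCDH7 lie closer to 0 than their points.

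The classical type I cadherins took 55.3% of the summed RPKM of all members. RPKM is the read count divided by the length of the transcript and by the total of the library, so levels can be compared between rows. This sum counts CDH3 and CDH2 through short fragments as well, and with 1 row per gene the share was 38.3%, still the largest of the 8 families. By reads, which are not divided by length, type I took 18.6% and FAT and Dachsous 37.9%. The 7 most abundant member rows were a longer and a shorter row each of CDH3 and CDH2, and the rows of DCHS1, CDH1 and PCDH7. Type I values went both ways: 4 of the 7 tested rows had positive and 3 negative log2 fold changes, with a median of 0.11, and 0.06 without WT replicate 3.

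CDH3, P-cadherin, a cadherin of placenta and surface epithelium, had the highest level of all members. It was not the highest of all cadherins. The desmosomal cadherin DSC2, outside the rule, had a mean of 87.6 RPKM over the libraries, against 67.8 RPKM for CDH3. The CDH3 row ENSSSCT00000026686 (1152 bases) stood at 71.8, 61.6 and 67.4 RPKM in WT replicates 1 to 3. In QQ replicates 1 to 3 it stood at 68.95, 61.7 and 75.3 RPKM. The groups overlapped fully, and the log2 fold change of -0.06 ± 0.12 (SE) turned positive, to 0.03, with limma on unscaled RPKM. A fragment of 244 bases, ENSSSCT00000025752, stood at 67.2, 47.6 and 74.4 RPKM in WT and 47.4, 44.6 and 58.4 RPKM in QQ embryos, a log2 fold change of -0.43 ± 0.21. Its groups overlapped as well. It had the smallest unadjusted edgeR p of all members with lower values, and it became -0.27 without WT replicate 3, its highest library.

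CDH1, E-cadherin, which holds epithelia together, had higher values in every QQ library than in any WT library. Its row ENSSSCT00000029834 (1135 bases) stood at 21.7, 17.4 and 14.7 RPKM in WT and at 24.6, 22.2 and 35.3 RPKM in QQ embryos. The means were 17.9 ± 3.53 and 27.4 ± 6.98 RPKM (SD, n = 3 each), and QQ replicate 3 was well above the rest. The log2 fold change was 0.52 ± 0.20 (SE; edgeR adjusted p = 0.233) and 0.41 without WT replicate 3. Epithelial markers went both ways: of 8 tested 3 had positive and 5 negative log2 fold changes. KRT8, KRT18 and KRT19 made up most of the summed level of the 9 markers, which was 7617, 7044 and 8445 RPKM in WT and 7068, 5780 and 6779 RPKM in QQ embryos, and KRT18 was lower in every QQ library than in any WT library. Without the keratins the sum was 248.96, 237 and 298 RPKM in WT and 236, 249.8 and 297 RPKM in QQ embryos, with overlapping groups and CLDN7 at or near 0 in each library. EPCAM, GRHL2 and ESRP1 had log2 fold changes of 0.06 ± 0.11, 0.12 ± 0.17 and 0.10 ± 0.12, and each was highest in QQ replicate 3, as CDH1 was. CLDN4 and CLDN6 went the other way, at -0.19 ± 0.15 and -0.22 ± 0.18, and both were highest in WT replicate 3.

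The library with the most CDH1 was also the one with the highest sum of liver and yolk sac endoderm markers. Their 6 genes summed to 104, 32.9 and 244 RPKM in WT and 112, 36.6 and 523 RPKM in QQ replicates 1 to 3. AFP, the fetal serum protein of these tissues, stood at 319.9 RPKM in QQ replicate 3 and at 7.13 to 132 RPKM in the other libraries. HNF4A, a transcription factor of endoderm, stood at 16.98 RPKM there and at 2.86 to 6.59 RPKM elsewhere. ALB, at 0.44 to 0.61 RPKM over the libraries, was lowest there. WT replicate 3 had the next highest sum but the lowest CDH1. The part of this tissue in the CDH1 values was not tested.

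CDH2, N-cadherin, is found in neural tube, somites and heart. Its longer row ENSSSCT00000004122 (2628 bases) stood at 16.9, 15.8 and 14.5 RPKM in WT and 16.1, 19.96 and 18.8 RPKM in QQ embryos, with a log2 fold change of 0.12 ± 0.12. The short row ENSSSCT00000036486 (265 bases) stood 3.17 times as high on the RPKM scale, at 45.6, 54.1 and 25.5 RPKM in WT and 52.9, 77.1 and 68.6 RPKM in QQ embryos, with a log2 fold change of 0.57 ± 0.25. WT replicate 3 had the lowest value in both rows, and leaving it out gave log2 fold changes of 0.08 and 0.33. Reads covered 26.2% to 31.7% of the bases of the longer row and at least 93.96% of those of the short row. The level of the longer row is therefore an average over many bases without reads, and both rows belong to a single gene. The ratio of CDH1 to the longer CDH2 row was 1.28, 1.10 and 1.02 in WT and 1.53, 1.11 and 1.87 in QQ embryos, so QQ replicate 2 lay within the WT range. The short CDH2 row stood above CDH1 in every library, so this ratio depends on the row used. CDH15, M-cadherin of muscle, stood at 0.94, 1.11 and 1.26 RPKM in WT and 1.16, 0.72 and 0.71 RPKM in QQ embryos. Its log2 fold change of -0.44 ± 0.30 was among the 4 lower values with the smallest unadjusted p. Skeletal muscle markers had lower values too: 4 of 4 tested were negative, with a median of -0.44, and -0.29 without WT replicate 3. At an unadjusted edgeR p under 0.05 there were 2 of them lower, DES and TNNI1, and DES was lower in every QQ library than in any WT library. Of 5 cardiac markers 4 were negative, with a median of -0.37, and -0.15 without WT replicate 3. MYL2 was the only one of them with every QQ library below every WT library, at a log2 fold change of -0.89 ± 0.26. The part of muscle and heart in the values of CDH15 and CDH2 was not tested.

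**Figure D2:**
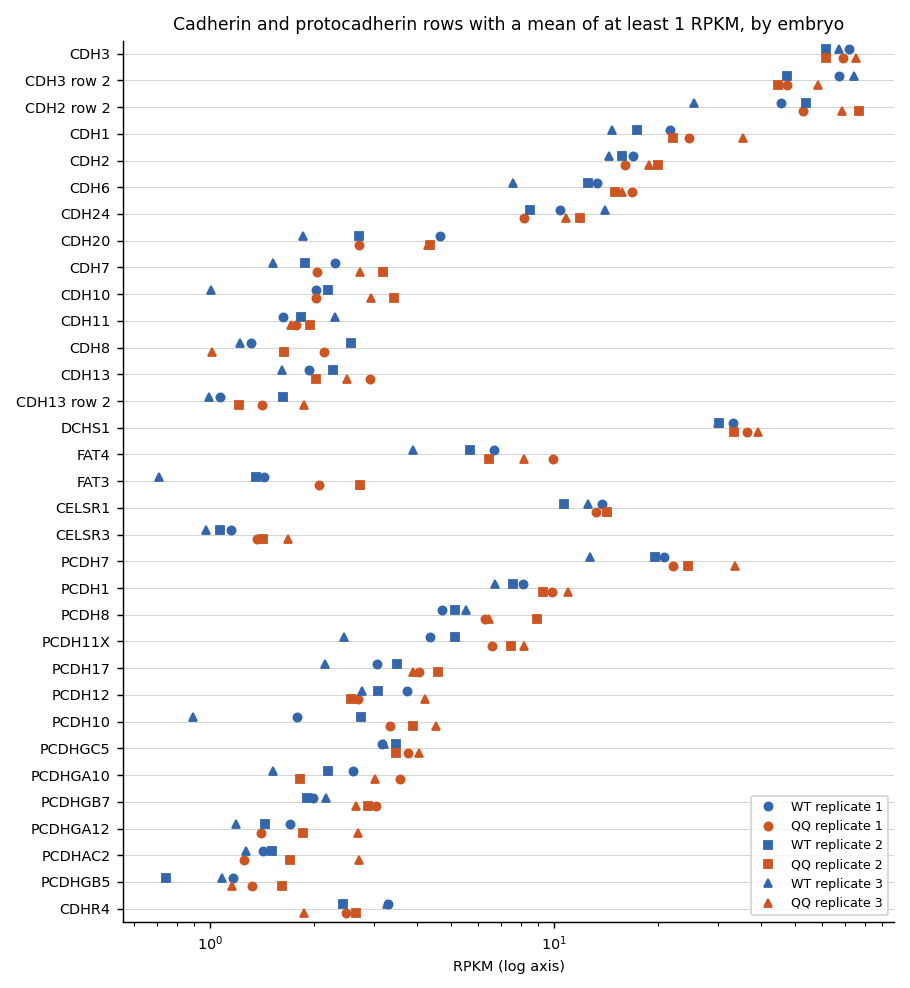
Each line is a member row with a mean of at least 1 RPKM, grouped by family from classical type I at the top to cadherin-related at the bottom, with RPKM on a log axis, WT in blue and QQ in orange, and a symbol for each replicate. CDH3 lies between 61.6 and 75.3 RPKM in all 6 embryos with both groups mixed, while FAT3 and PCDH10 show separate groups with WT replicate 3 lowest.

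The type II cadherins, which pattern motor neurons, neural crest and mesenchyme, leaned to neither side in the signs of their log2 fold changes. Their summed level was 40.34, 38.3 and 32.9 RPKM in WT and 40.37, 46.4 and 44.3 RPKM in QQ embryos. Every QQ library thus lay above every WT library in this sum, QQ replicate 1 only just. Of 11 tested rows 5 had positive and 6 negative log2 fold changes, with a median of -0.06, and between -0.07 and 0.07 with 1 library left out. CDH6, expressed in kidney precursors and neural crest, was the most abundant. Its row ENSSSCT00000018296 stood at 13.4, 12.5 and 7.61 RPKM in WT and 16.9, 15.01 and 15.7 RPKM in QQ embryos, without overlap, and its log2 fold change was 0.42 ± 0.19, or 0.23 without WT replicate 3. CDH24 stood at 10.4, 8.52 and 14.0 RPKM in WT and 8.16, 11.9 and 10.8 RPKM in QQ embryos. Here WT replicate 3 was the highest, and the log2 fold change of -0.20 ± 0.21 became 0.04 without it.

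CDH20 stood at 4.67, 2.70 and 1.86 RPKM in WT and 2.71, 4.34 and 4.29 RPKM in QQ embryos, with a log2 fold change of 0.20 ± 0.32 that became -0.04 without WT replicate 3. CDH11 is the cadherin of mesenchyme and bone precursors. Its main row ENSSSCT00000003095 (5953 bases) stood at 1.63, 1.83 and 2.31 RPKM in WT and 1.78, 1.95 and 1.72 RPKM in QQ embryos. Reads covered 23.2% to 25.8% of this row, and the other 4 CDH11 rows had too few reads to be tested. In the gene order of Sscrofa11.1, to which 41 of the 69 gene names could be matched, several members lie side by side, and neighbours went both ways. CDH1 and CDH3 are adjacent on chromosome 6 and had log2 fold changes of 0.52 and -0.06. On chromosome 16 the run CDH18, CDH12, CDH10, CDH9 and CDH6 held log2 fold changes of -0.19, -0.18 and 0.59 for the first 3 genes, too few reads for CDH9, and 0.42 for CDH6.

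The FAT and Dachsous rows all had positive log2 fold changes, 5 of 5 tested, with a median of 0.51, and 0.33 without WT replicate 3, which was the lowest library in each of the 5. With the length trend removed 4 of the 5 were positive. FAT3, a giant cadherin that shapes neurons in the retina, had the smallest unadjusted edgeR p of all members. Its row ENSSSCT00000016292, of 13767 bases and the longest member, stood at 1.43, 1.36 and 0.71 RPKM in WT and 2.07, 2.72 and 2.72 RPKM in QQ embryos. The lowest QQ library lay above the highest WT library. Means were 1.17 ± 0.399 and 2.50 ± 0.373 RPKM (SD, n = 3 each), and reads covered from 34.5% of the row in the least to 76.6% in the most covered library. The log2 fold change was 1.01 ± 0.23 (SE; edgeR adjusted p = 0.233), 0.76 without WT replicate 3 and 0.65 with the length trend removed. DESeq2 gave an adjusted p of 0.0171 and limma with array weights 0.0353, within a range of 0.0171 to 0.526 over the alternative settings.

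DCHS1, the ligand of FAT4, took 34.6% of all member reads in a row of 10060 bases (ENSSSCT00000025039). It stood at 33.0, 30.1 and 29.9 RPKM in WT and 36.3, 33.3 and 39.0 RPKM in QQ embryos, with groups that touched but did not overlap. Its log2 fold change was 0.13 ± 0.11, and with the length trend removed it turned to -0.19. FAT4, the receptor, is present only as a fragment of 382 bases (ENSSSCT00000029265), at 6.71, 5.71 and 3.89 RPKM in WT and 9.90, 6.45 and 8.15 RPKM in QQ embryos. The groups overlapped, with a log2 fold change of 0.51 ± 0.29. FAT2 and DCHS2 stayed under 0.5 RPKM in every library. For comparison, FAT1 (14672 bases), outside the rule, stood at 27.8, 22.5 and 17.1 RPKM in WT and 29.3, 30.2 and 38.3 RPKM in QQ embryos, with a log2 fold change of 0.44 ± 0.17, or 0.04 with the length trend removed.

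Both CELSR rows had positive values, 0.08 ± 0.15 for CELSR1 and 0.39 ± 0.16 for CELSR3. CELSR1 (ENSSSCT00000000001, a row of 1586 bases) stood at 13.7, 10.7 and 12.6 RPKM in WT and 13.2, 14.3 and 14.2 RPKM in QQ embryos, and its log2 fold change turned to -0.00 under quantile normalization. CELSR3, expressed where axon tracts form, stood at 1.15, 1.07 and 0.97 RPKM in WT and 1.37, 1.42 and 1.68 RPKM in QQ embryos, without overlap. Its row is 10235 bases long, and the log2 fold change was 0.07 with the length trend removed.

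Of the 8 families, the non-clustered protocadherins had the highest share of members at an unadjusted edgeR p under 0.05. It was 6 of 7 tested rows, each higher in QQ embryos, where 11% of all tested rows were higher. With 1 library left out it was 3 or 4 of 7, where 5.02% to 14.6% of all tested rows were higher. Without WT replicate 3 it was 3 of 7, where 8.55% were. With the length trend removed it was 3 of 7 as well, where 9.01% were. The median log2 fold change of the family was 0.43, 0.32 without WT replicate 3, and 0.28 with the length trend removed. Their summed level was 47.6, 47.2 and 33.2 RPKM in WT and 56.3, 62.1 and 73.1 RPKM in QQ embryos, so every QQ library lay above every WT library, with the lowest value in WT replicate 3. These proteins act in neural circuits and in the sorting of mesoderm cells.

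PCDH7, the most abundant of them (ENSSSCT00000009590, 3878 bases), stood at 20.8, 19.7 and 12.7 RPKM in WT and 22.1, 24.6 and 33.5 RPKM in QQ embryos. WT replicate 3 and QQ replicate 3 were the extremes, and the log2 fold change was 0.50 ± 0.19, or 0.32 without WT replicate 3. PCDH1 (ENSSSCT00000023766), an adhesion protein of epithelia, stood at 8.14, 7.57 and 6.72 RPKM in WT and 9.82, 9.25 and 10.98 RPKM in QQ embryos, with a log2 fold change of 0.33 ± 0.14. PCDH8 (ENSSSCT00000010353), known as paraxial protocadherin for its expression in the mesoderm that forms somites, stood at 4.72, 5.15 and 5.53 RPKM in WT and 6.28, 8.93 and 6.47 RPKM in QQ embryos. In PCDH8 WT replicate 3 was the highest of the WT libraries, and the log2 fold change was 0.39 ± 0.17 with it and 0.47 without it.

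PCDH11X (ENSSSCT00000023372) stood at 4.36, 5.15 and 2.45 RPKM in WT and 6.62, 7.51 and 8.19 RPKM in QQ embryos. The groups were well apart, with a log2 fold change of 0.81 ± 0.24 and 0.57 without WT replicate 3. PCDH10 (ENSSSCT00000013646) stood at 1.78, 2.74 and 0.89 RPKM in WT and 3.34, 3.90 and 4.52 RPKM in QQ embryos, the largest log2 fold change among tested members, at 1.03 ± 0.33. Without WT replicate 3 it was 0.71. PCDH17 stood at 3.05, 3.498 and 2.15 RPKM in WT and 4.04, 4.60 and 3.89 RPKM in QQ embryos. PCDH12, a protocadherin of endothelium, was the exception of the family at -0.11 ± 0.22, with overlapping groups. The summed level of 7 endothelial markers was 33.96, 35.96 and 29.99 RPKM in WT and 43.4, 31.4 and 36.3 RPKM in QQ embryos, with TIE1 at 0 in every WT library.

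**Figure D3:**
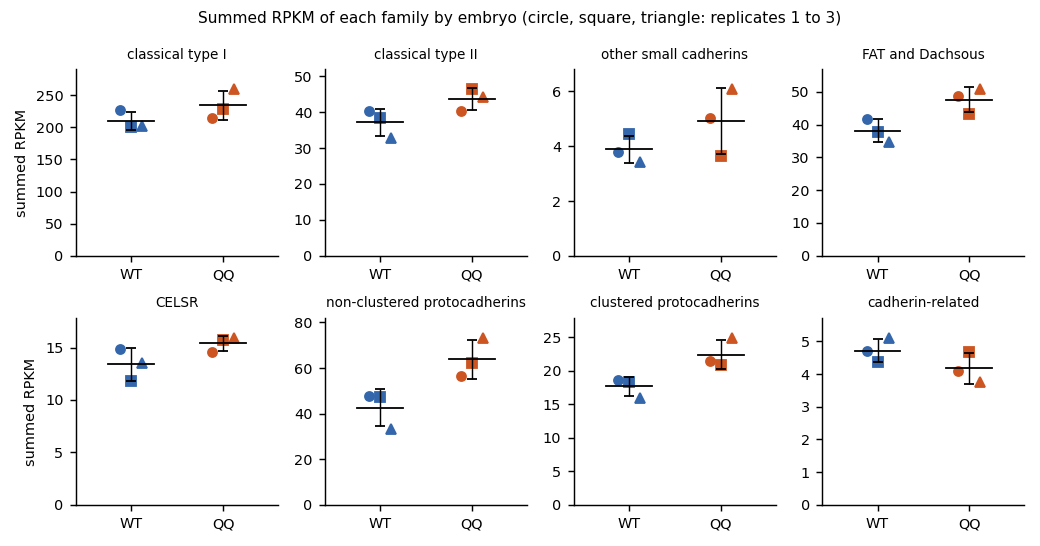
Each panel sums the RPKM of all rows of 1 family in each embryo, with WT in blue, QQ in orange, a symbol for each replicate, a line at the group mean and a bar of 1 SD. In the panel of non-clustered protocadherins the QQ embryos lie between 56.3 and 73.1 RPKM and the WT embryos between 33.2 and 47.6 RPKM, while the groups overlap for classical type I, CELSR, other small cadherins and cadherin-related rows.

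The clustered protocadherins, whose many isoforms give neurons their surface identity, held 25 rows but only 4.98% of the summed member RPKM. Most of it, 4.31%, was of the gamma cluster: all 14 gamma rows had enough reads for the test, against 1 of 4 alpha and 1 of 7 beta rows. Of the 14 gamma rows 12 had positive and 2 negative log2 fold changes, with a median of 0.34, and 0.21 without WT replicate 3. In RPKM the gamma rows summed to 16.2, 15.5 and 13.95 in WT and 19.3, 17.8 and 21.1 in QQ embryos, so the groups did not overlap. The gamma isoforms share their last exons and resemble each other, so reads that fit several of them could be split or lost in the authors' counting, and their values are uncertain.

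PCDHGC5 (ENSSSCT00000015722) had the highest level of the cluster, at 3.16, 3.47 and 3.19 RPKM in WT and 3.76, 3.48 and 4.05 RPKM in QQ embryos. Reads covered only 24.6% to 37.4% of its bases. The gap between the groups was smaller than the spread within either, the log2 fold change was 0.11 ± 0.17, and it turned to -0.05 under quantile normalization. PCDHGB7 (ENSSSCT00000022700) stood at 1.99, 1.91 and 2.18 RPKM in WT and 3.03, 2.87 and 2.66 RPKM in QQ embryos, clearly apart, with a log2 fold change of 0.40 ± 0.19 and 0.48 without WT replicate 3. PCDHGA10 stood at 2.59, 2.20 and 1.52 RPKM in WT and 3.56, 1.83 and 3.02 RPKM in QQ embryos, with a log2 fold change of 0.33 ± 0.30. PCDHGB2 went the other way: it stood at 0.79, 0.74 and 0.61 RPKM in WT and 0.52, 0.66 and 0.54 RPKM in QQ embryos, with a log2 fold change of -0.41 ± 0.27.

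The cadherin-related rows lay low, and 3 of 4 tested rows had negative values. CDHR4 (ENSSSCT00000012469), the most abundant, stood at 3.28, 2.44 and 3.27 RPKM in WT and 2.48, 2.66 and 1.87 RPKM in QQ embryos. Its log2 fold change of -0.45 ± 0.23 was among the 4 lower values with the smallest unadjusted p, the groups overlapped, and it was -0.36 without WT replicate 3. CDHR3 and CDHR5, the latter of the intestinal brush border, had log2 fold changes of -0.15 ± 0.32 and -0.17 ± 0.29. That of CDHR3 became 0.17 without WT replicate 3, and that of CDHR5 became 0.10 without WT replicate 2. CDH23, which forms the tip link of hair cells with PCDH15, stood at 0.18, 0.13 and 0.14 RPKM in WT and 0.21, 0.26 and 0.26 RPKM in QQ embryos, with 17 to 33 reads a library.

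Among the other small cadherins, CDH13, the T-cadherin anchored by a lipid, stood at 1.94, 2.28 and 1.62 RPKM in WT and 2.92, 2.03 and 2.50 RPKM in QQ embryos. CDH16, the kidney cadherin, had too few reads for the test, with 8, 6 and 13 reads in WT and 8, 4 and 36 reads in QQ embryos, and only QQ replicate 3 was high, the library with the most AFP and HNF4A. In all 30 members were not tested, with 1 to 75 reads over the 6 libraries, and 11 of them had at most 3 reads in all. Seen over the whole set, 10 rows had a mean of at least 10 RPKM, 23 a mean from 1 to 10, and 51 a mean under 1.

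Long transcripts leaned towards QQ over the whole table, and many members are long. The median length was 2409 bases for members and 1672 for all rows. Among all tested rows of 5000 bases or more, 908 had positive and 398 negative log2 fold changes, with a median of 0.15, and 0.09 without WT replicate 3. The 9 tested members of that length had 8 positive and 1 negative value, with a median of 0.43, and 0.28 without that library. With each library's trend with length removed, the medians were -0.05 and 0.19.

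Members of middle length leaned towards QQ where all rows of that length did not. From 2000 to 5000 bases, 25 of 36 members were positive, with a median of 0.23, or 0.10 without WT replicate 3, and the median of all tested rows of that length was -0.00. Below 2000 bases 5 of 9 members were positive, with a median of 0.08, against -0.04 for all tested rows. With the length trend removed, 37 of the 54 members had positive and 17 negative values, with a median of 0.18. Of all tested rows 42.4% were then positive, with a median of -0.07. At an unadjusted edgeR p under 0.05 there were then 7 members higher, where 9.01% of all tested rows were, and 1 lower, the short CDH3 row, where 13.3% were.

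**Figure D4:**
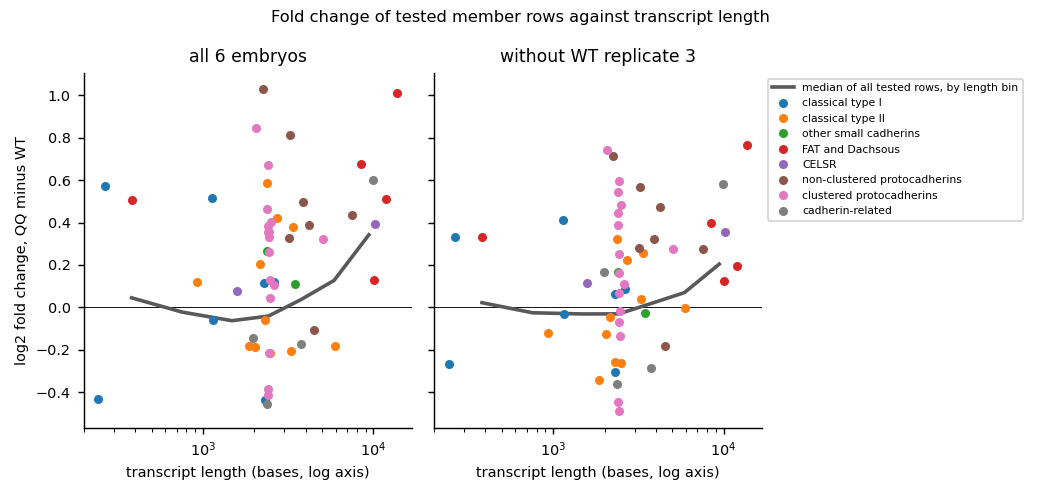
Each point is a tested member row, with transcript length in bases on a log axis and the edgeR log2 fold change (QQ minus WT) on the other, for all 6 embryos on the left and without WT replicate 3 on the right, and the grey line joins the medians of all tested rows in bins of length. The grey line ends at 0.34 on the left and 0.20 on the right for rows of 8000 bases and more.

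Genes that work with cadherins, along with the desmosomal cadherins, were followed as a list of 57 catenins, junction partners and regulators. It had 52 genes with a row and 45 tested, of which 30 (66.7%) had positive and 15 negative log2 fold changes, where 49.7% of all tested rows were positive. The median was 0.08, and 0.03 without WT replicate 3. The split moved with the scaling: it was 37 to 8 with limma on unscaled RPKM, where 60.5% of all tested rows were positive, and 23 to 22 with the length trend removed, where 42.4% were. No gene of the list passed edgeR. At an unadjusted edgeR p under 0.05 there were 6 higher (13.3% of the 45, where 11% of all tested rows were) and 0 lower (9.29%). WT replicate 3 was the lowest library in 27 of the 45, 60% of them, against 41.4% of all tested rows.

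The core catenins had log2 fold changes no larger than about their standard errors. CTNNB1, beta-catenin (ENSSSCT00000012342), stood at 459.96, 482.98 and 367 RPKM in WT and 484, 548 and 507 RPKM in QQ embryos. Its mean level was 1.18 times that of all members summed, and its log2 fold change was 0.14 ± 0.12. CTNNA1, alpha-catenin, stood at 194, 219 and 220.2 RPKM in WT and 205, 190.4 and 217 RPKM in QQ embryos, a log2 fold change of -0.14 ± 0.12 that turned to 0.04 under quantile normalization. CTNND1, p120-catenin, stood at 53.1, 50.9 and 42.7 RPKM in WT and 47.2, 50.1 and 56.3 RPKM in QQ embryos, a log2 fold change of -0.03 ± 0.11 that turned to 0.07 with limma on unscaled RPKM.

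PTPRF, a receptor phosphatase found at cadherin junctions, had the smallest unadjusted edgeR p of the list. Its row ENSSSCT00000024932 is a fragment of 671 bases and stood at 24.6, 21.6 and 15.5 RPKM in WT and 32.8, 42.8 and 48.3 RPKM in QQ embryos. The log2 fold change was 0.91 ± 0.20 (SE; edgeR adjusted p = 0.233), 0.76 without WT replicate 3, and DESeq2 gave an adjusted p of 0.0165, the lowest of a range up to 0.526 over the alternative settings. FZD3, the Frizzled receptor of planar polarity, stood at 12.9, 16.4 and 11.2 RPKM in WT and 18.1, 24.6 and 20.5 RPKM in QQ embryos, with a log2 fold change of 0.54 ± 0.16, and limma with array weights called it (adjusted p = 0.0336, in a range from there to 0.526).

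NECTIN3, an adhesion protein that starts junctions beside cadherins, stood at 2.26, 2.61 and 0.73 RPKM in WT and 3.51, 4.54 and 3.93 RPKM in QQ embryos. Its log2 fold change was 1.01 ± 0.37, and 0.64 without WT replicate 3. The repressors of E-cadherin did not move as one. TWIST1 stood at 100.7, 105 and 95.0 RPKM in WT and 92.3, 91.4 and 93.1 RPKM in QQ embryos, a log2 fold change of -0.21 ± 0.11 with every QQ library below every WT library. TWIST2 had a log2 fold change of -0.66 ± 0.40 at 7 to 20 reads a library. ZEB2, by contrast, had one of 0.51 ± 0.22, and 0.26 without WT replicate 3. NECTIN2 had a log2 fold change of -0.25 ± 0.17.

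**Figure D5:**
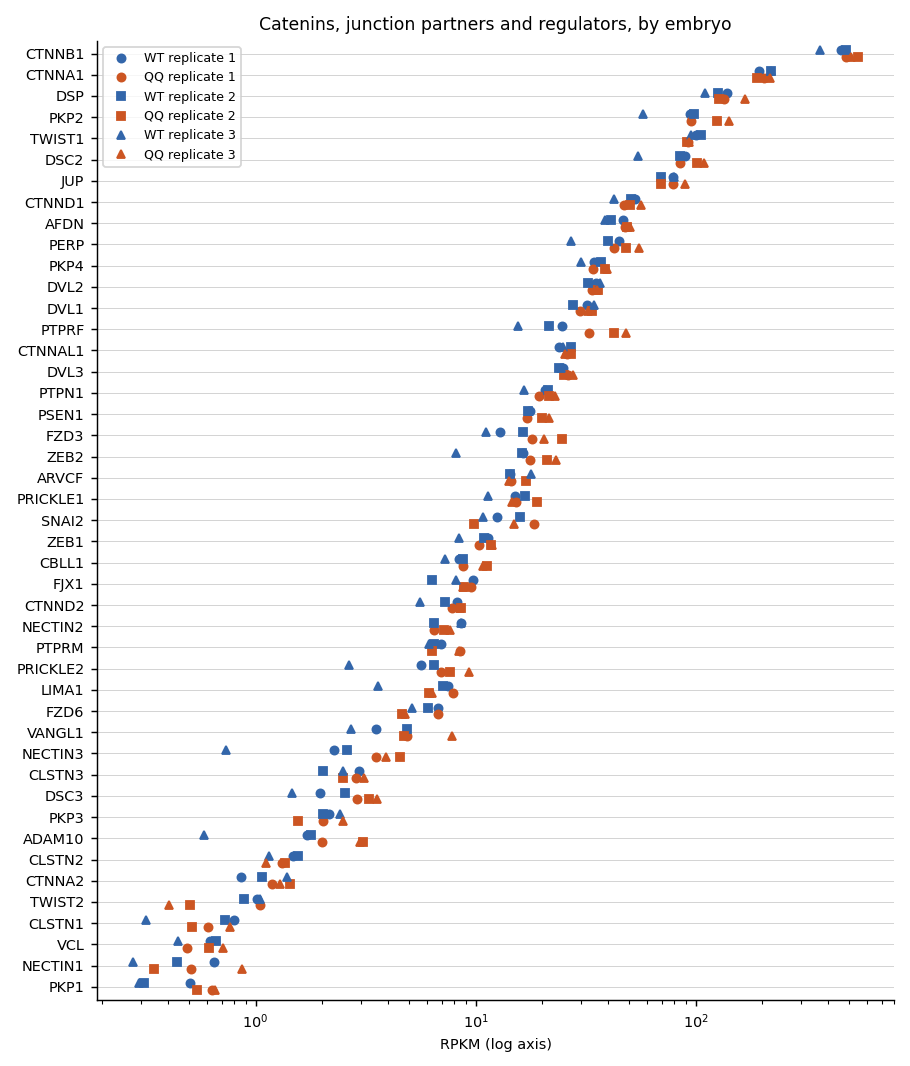
Each line is a tested gene of the partner list, ordered by mean level, with RPKM on a log axis, WT in blue and QQ in orange, and a symbol for each replicate. The catenin rows at the top show mixed or nearly touching groups, and WT replicate 3 lies to the left of the other embryos for NECTIN3, ADAM10, ZEB2 and PRICKLE2.

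The remaining marker lists of tissues that use particular cadherins overlapped between the groups in their sums, other than that of neural crest. Summed over 5 neural tube markers with a row, where SOX2 and FABP7 were the most abundant, the levels were 81.0, 75.7 and 69.2 RPKM in WT and 65.8, 86.5 and 70.4 RPKM in QQ embryos. Over 6 somite and sclerotome markers they were 48.8, 53.1 and 55.4 RPKM in WT and 61.5, 61.7 and 47.6 RPKM in QQ embryos. The 4 neural crest markers with a row had their lowest sum in WT replicate 3, at 30.4 RPKM, with 43.4 and 48.1 RPKM in the other WT libraries and 50.8 to 54.6 RPKM in QQ embryos. ETS1 was the most abundant of these markers, and the groups overlapped in each of the 3 tested. Of 6 mesenchyme markers with a row 5 had negative values, with a median of -0.10. Of 4 tested trophoblast markers 3 were negative, with a median of -0.10. Erythroid markers varied widely between embryos: 5 of 5 tested were negative, with a median of -1.01, and their sum was 1479, 446 and 637 RPKM in WT and 565, 56.4 and 719 RPKM in QQ embryos, so the groups overlapped. HBB was lower in every QQ library than in any WT library, but on few reads: 28, 12 and 13 in WT and 7, 0 and 11 in QQ embryos. The part of these tissues in the values of the members was not tested.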

How the data were processed

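Messenger RNA of 3 WT and 3 QQ whole pig embryos was sequenced from TruSeq libraries on an Illumina HiSeq 2000, per the labels. The genome build was Sscrofa10.2, per the submitters' processing notes, and aligner, counting program and strand use were not given in the sources used here. Per the file headers, the authors' table gives uniquely mapped read counts, the percent of each transcript's bases with reads, and RPKM, for each Ensembl transcript row. The deposited counts are whole numbers. The deposited RPKM equals count over length and library total. The authors' percent served as coverage.

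The cadherin rows, families, gene lists and naming rule were chosen with earlier results of these data known. Named members are the 3 most abundant rows of each family, the 4 tested rows in each direction with the smallest unadjusted p, and CDH1, CDH2, CDH5, CDH11, FAT1, FAT4, DCHS1, CELSR1 and PCDH19, of which CDH5 and PCDH19 were not analysed here. Partner genes are the 3 in each direction with the smallest unadjusted p, with CTNNA1, CTNNB1 and CTNND1. PCDH17, CDH23, FAT2, DCHS2, PCDH12 and ZEB2 were named after their values were seen. Symbols came from the deposited descriptions and matches, through gene tables of Sscrofa11.1.

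The test was edgeR 4.0.16 (R 4.3.3) on all 6 libraries, with TMM factors from 0.933 to 1.06, the default filter (minimum count 10, minimum total 15) and Benjamini-Hochberg adjustment. It was checked on simulated counts. Alternatives were median-ratio scaling, no filter or one on a mean of 2 RPKM, DESeq2 1.42.0, limma 3.58.1 on log2(RPKM + 0.5) with pseudocounts of 0.1 and 1, quantile normalization, array weights, removal of the length trend (loess span 0.4), a replicate block, 1 row per gene, and leaving out each library. A floor of 3 reads lies at 0.222 to 0.246 CPM, for counting error only. No pair of libraries was closer than sampling noise.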

Additional observations from a re-analysis of the deposited data

How the results depend on the processing

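edgeR called 0 rows of the whole table in each direction. DESeq2 called 103 higher and 8 lower, and limma with array weights 1079 and 243. Leaving out 1 library gave 0 to 2 edgeR calls higher, with 2 without QQ replicate 1 and 1 without WT replicate 3, and 0 to 1 lower. Among the members DESeq2 called 1 and array weights 5 higher, and among the partner genes 1 and 4. The median log2 fold change of the members was 0.089 under quantile normalization and ranged from 0.11 to 0.34 with 1 library left out.

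With the replicate number as a block the members' median was 0.26, that of the partner genes 0.091, and edgeR called 0 rows. The block took the members at an unadjusted p under 0.05 from 13 to 8. Replicate numbers did not pair the embryos: the correlations of same-numbered deviations were -0.19, 0.21 and -0.056.

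Log2 fold changes that changed sign were small, and the cause was not tested. With array weights they were 0.096 for CDH11, -0.11 for CDH20, 0.038 for CDH24, 0.17 for CDHR3, 0.061 for CDHR5 and 0.048 for CTNNA1. Under quantile normalization they were 0.045 for CDH3, -0.0034 for CELSR1, 0.040 for CTNNA1, 0.035 for CTNND1 and -0.045 for PCDHGC5. With limma and pseudocounts of 0.1, 0.5 and 1 they were 0.034, 0.034 and 0.034 for CDH3 and 0.069, 0.068 and 0.067 for CTNND1. With 1 library left out the values ranged from -0.045 to 0.61 for CDH20, -0.37 to 0.040 for CDH24, -0.13 to 0.030 for CDH3, -0.31 to 0.17 for CDHR3, -0.30 to 0.10 for CDHR5, -0.028 to 0.14 for CELSR1 and -0.097 to 0.021 for CTNND1. DCHS1 turned to -0.19 with the length trend removed. Depth limits the comparison as well: 30 members had at most 75 reads over the 6 libraries and were not tested.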
